A study of Mus musculus with 26 samples.

Results

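The circadian clock genes Per1, Per2, Per3, Cry1, Cry2, Dbp, Tef, Nr1d2 and Bhlhe40 and the related transcription factor gene Nfil3 were followed in mouse S49 T-lymphoma cells exposed to a cAMP analog. Members were all probe sets whose single gene symbol in the platform annotation was one of these 10 genes. They were 17 probe sets of 10 genes, out of 22626 probe sets and 12393 named genes on the array. Of the 10 genes, 5 had 1 probe set and 5 had several, and the probe set with the highest mean over all arrays stood for the gene.

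The mammalian clock is a feedback loop in which BMAL1 and CLOCK activate E-box promoters, among them those of the Per and Cry genes, whose protein products then repress BMAL1 and CLOCK. Outputs of the loop include DBP and TEF, which activate D-box promoters, NFIL3 (E4BP4), which represses the same D-boxes, and the nuclear receptor REV-ERBβ (Nr1d2), which represses Bmal1. Signals that raise cAMP are known to act on the clock through protein kinase A (PKA), CREB and cAMP response elements (CREs), of which Per1 carries well-known examples. In lymphocytes NFIL3 is also known for its roles in the development of innate lymphoid cells and in cytokine gene control.

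Kin- S49 cells, a variant known to lack PKA activity, and wild-type (WT) S49 cells were either untreated (0 h) or given the cell-permeable cAMP analog 8-CPT-cAMP at 100 µM, and total RNA was measured after 2, 6 or 24 h. Untreated groups comprised 4 arrays and treated groups 3, which made 26 arrays in 8 groups, and all groups derive from the same established lymphoma line. The labels give no information on clones, serum, cell density or synchronisation, and untreated arrays were made at 0 h only, so within a line the analog and the time in culture cannot be told apart. The labels do not say whether replicate arrays represent independent cultures, so the p-values rest on an array-to-array spread that may be technical only. Precision is limited by the 3 or 4 arrays a group and by their spread, part of which followed the array sets described below. In a bulk sample, fewer cells that carry a transcript and less of it per cell cannot be told apart.

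No source used here states on which scale the values were deposited. The square root of each was read as a log2-like intensity, which is an assumption, and all levels and changes below are in units of that scale. Levels of different probe sets are not comparable with each other. A change counted as passed where limma gave a Benjamini-Hochberg adjusted p under 0.05 over all 22626 probe sets, with a spread shared by all 8 groups. The arrays fell into 2 sets by the array numbers in the labels, 10 arrays numbered 1 to 14 and 16 arrays numbered 16 to 47. The first component of the variance left after group means, 35.5% of it, kept these sets apart (arrays 1 to 14 at −14.3 or lower, arrays 16 to 47 at 6.23 or higher). Every group held arrays of both sets, and what the sets stand for is not given in the sources used here. The analog registered in WT cells. Crem, which encodes the cAMP-inducible repressor ICER, was higher by 6.07 ± 0.362 units (SE, adjusted p = 2.49e-10) in WT cells at 2 h than at 0 h. In Kin- cells the Crem change at 2 h was 0.05 (adjusted p = 1). The PKA catalytic subunit gene Prkaca had a level of 8.62 ± 0.14 in untreated Kin- cells and 8.83 ± 0.08 in untreated WT cells (SD, n = 4 each; adjusted p = 0.395). The T-cell markers Cd3d, Cd3e, Cd3g and Thy1 had mean levels of 10.19 to 12.54, Cd2 had 7.47 and Cd5 3.23. Ptprc, which is not restricted to T cells, had 11.9. The measured markers of B, myeloid, NK, erythroid and fibroblast cells had mean levels of 1.71 to 5.73. Since these are different probe sets, the levels describe the arrays and do not settle which cells were present. Single markers moved with a group: Itgam was higher in WT cells by 2.11 at 24 h (adjusted p = 1.64e-06), while Cd14 and Lyz2 stayed at group means of 1.69 to 1.75 and 3.35 to 3.75, and the T-cell gene Cd2 changed in WT cells by −1.64 at 2 h (adjusted p = 0.000288), −2.09 at 6 h and −1.36 at 24 h. The WT arrays at 24 h differed widely in both genes, with an SD of 1.04 for Itgam and 1.00 for Cd2, against 0.13 and 0.15 at 0 h. Cd2 was also higher in untreated Kin- than in untreated WT cells, by 2.00 (adjusted p = 9.94e-05). The part of these in the results below was not tested.

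In WT cells at 2 h, 3 of the 10 genes, Nfil3, Per1 and Nr1d2, were higher than at 0 h and 0 were lower. Among all 22626 probe sets 14.4% passed in that comparison, 7.11% as higher and 7.25% as lower. The median change of the 10 genes was −0.11, against 0.05 over all probe sets. The 3 genes then took different courses: Nfil3 was still higher at 6 and 24 h, Per1 was lower at 6 h than at 2 h, and Nr1d2 was near its untreated level at 6 h and above it again at 24 h. The 3 WT comparisons share the same 4 untreated arrays.

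Nfil3 encodes a basic leucine zipper (bZIP) repressor. In Kin- cells its probe set read 3.95, 3.22, 5.57 and 5.68 at 0 h, 3.80, 5.28 and 4.58 at 2 h, 3.91, 5.34 and 5.37 at 6 h, and 3.51, 5.54 and 5.71 at 24 h. In WT cells it read 4.22, 4.52, 3.44 and 3.92 at 0 h, 8.98, 7.28 and 7.65 at 2 h, 8.01, 6.92 and 6.45 at 6 h, and 6.94, 6.55 and 6.87 at 24 h. All 9 treated WT arrays lay above all 4 untreated WT arrays and above all 13 Kin- arrays. The group means in WT cells were 4.03 ± 0.46 (SD, n = 4), 7.97 ± 0.89, 7.13 ± 0.80 and 6.79 ± 0.21 (n = 3 each) in order of time. The rise was 3.94 ± 0.625 units at 2 h (SE, adjusted p = 0.000112), 3.10 at 6 h (adjusted p = 0.000906) and 2.76 at 24 h (adjusted p = 0.00139), the largest change of any member at each of these times. The difference of −0.84 between 6 and 2 h did not pass (adjusted p = 0.391), and had adjusted p = 0.0383 with the array series as a block and 0.0463 in arrays 16 to 47 alone. The 2 h rise was 3.78 in arrays 16 to 47 (adjusted p = 7.03e-06) and 4.60 in arrays 1 to 14, where WT cells at 2 h had a single array (adjusted p = 0.0562).

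Per1 encodes a repressor of the clock loop and is known in many tissues as an early target of clock-resetting signals. In Kin- cells its levels were 6.24, 6.28, 6.53 and 6.74 at 0 h, 6.24, 6.47 and 6.41 at 2 h, 6.44, 6.57 and 6.72 at 6 h, and 6.35, 6.74 and 6.33 at 24 h. In WT cells they were 6.40, 6.62, 6.33 and 6.77 at 0 h, 8.46, 8.83 and 8.25 at 2 h, 7.24, 7.33 and 7.69 at 6 h, and 6.73, 7.12 and 7.36 at 24 h. The WT arrays at 2 h stood apart from those at every other WT time, those at 6 h were all above the untreated ones, and those at 24 h overlapped the untreated range by 1 array. The rise was 1.98 ± 0.169 at 2 h (SE, adjusted p = 3.81e-08) and 0.89 at 6 h (adjusted p = 0.000489), and Per1 fell by 1.09 between 2 and 6 h (adjusted p = 0.00035). Within each array set the 2 h rise was close to this, 1.99 for arrays 16 to 47 and 1.95 for arrays 1 to 14. At 24 h it was still 0.54 above 0 h (adjusted p = 0.0168). That last call was lost without WT array 16 at 0 h (adjusted p = 0.0548) and without WT arrays 19 (0.0596) or 39 (0.134) at 24 h.

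Nr1d2 encodes REV-ERBβ, a haem-binding nuclear receptor that represses transcription. Its Kin- levels were 7.80, 7.68, 7.89 and 7.76 at 0 h, 7.50, 7.08 and 7.91 at 2 h, 7.66, 7.66 and 7.63 at 6 h, and 7.68, 7.29 and 7.98 at 24 h. Its WT levels were 7.48, 7.73, 7.37 and 7.37 at 0 h, 8.93, 8.70 and 8.83 at 2 h, 7.49, 7.56 and 7.30 at 6 h, and 8.38, 8.06 and 7.94 at 24 h. Thus the 2 h and the 24 h arrays of WT cells were all above the untreated ones, while the 6 h arrays overlapped them. Nr1d2 was higher by 1.33 ± 0.161 at 2 h (SE, adjusted p = 4.11e-06), differed by −0.04 at 6 h (adjusted p = 0.911, 95% interval −0.37 to 0.30) and was higher by 0.64 at 24 h (adjusted p = 0.00341). Between successive times it fell by 1.37 between 2 and 6 h (adjusted p = 2.15e-05) and rose by 0.68 between 6 and 24 h (adjusted p = 0.00721). In arrays 16 to 47 alone the 24 h changes were close in size, 0.63 against 0 h and 0.57 against 6 h, and did not pass (adjusted p = 0.094 and 0.152). A second, dim Nr1d2 probe set, at 2.10 to 2.59, was also higher at 2 h by 0.20 (adjusted p = 0.0273) and fell by 0.24 between 2 and 6 h (adjusted p = 0.0159).

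**Figure D1:**
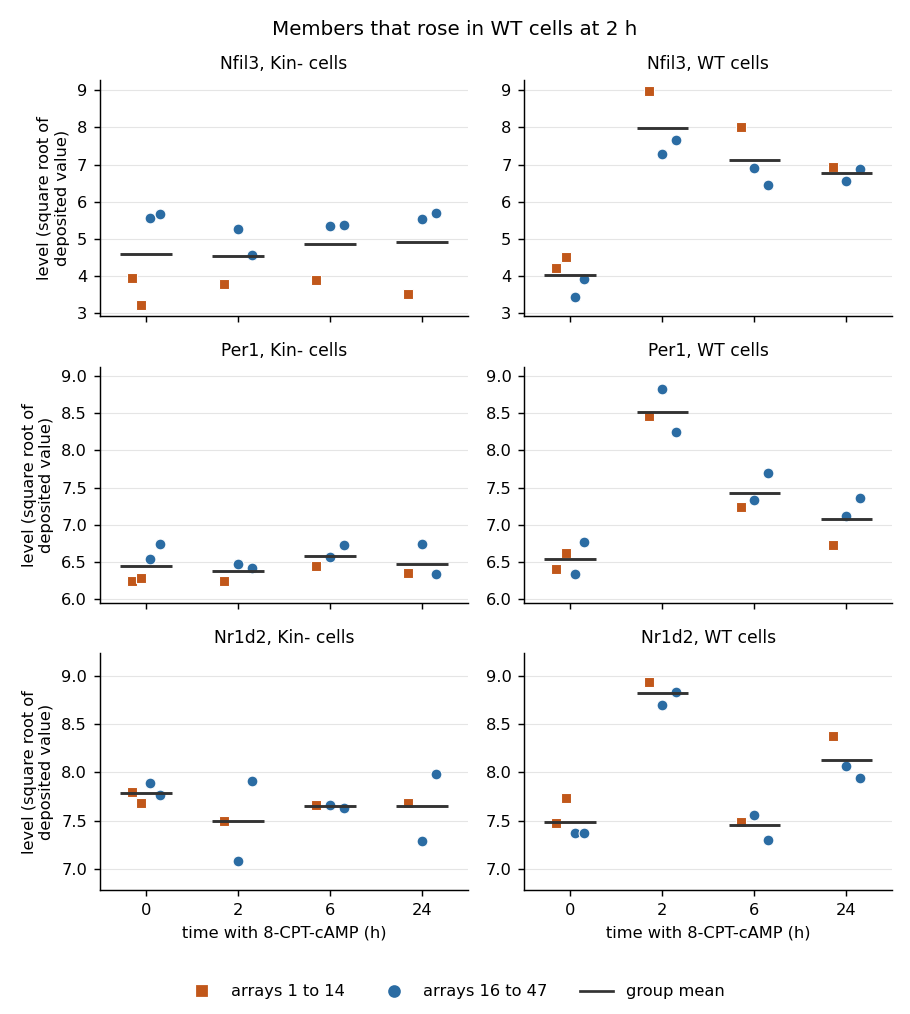
Levels of Nfil3, Per1 and Nr1d2 (square root of the deposited value) in every array against time with 8-CPT-cAMP in hours, Kin- cells in the left panels and WT cells in the right ones. Squares are arrays 1 to 14, circles arrays 16 to 47 and bars the group means; the 2 h arrays of WT cells, at 7.28 to 8.98 for Nfil3, 8.25 to 8.83 for Per1 and 8.70 to 8.93 for Nr1d2, lie above all untreated WT arrays.

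The promoter windows of these 3 genes are shown because CREB and the clock factors act through short elements near the start site, together with that of Per3, which passed in no comparison. The windows come from RefSeq (GRCm38.p6, 250 bases before to 50 after the start site, read 5′ to 3′ along the gene's strand), which had 10 windows for 8 of the 10 genes. Searched on both strands were the full CRE TGACGTCA, its short form TGACG (which every full CRE also contains), the E-box CACGTG and the D-box forms TTACGTAA and TTATGTAA. Matches are in capitals. The Nfil3 window is chr13:52980990-52981289 on the minus strand, the Per1 windows are chr11:69098699-69098998 and chr11:69099902-69100201 on the plus strand, the Nr1d2 window is chr14:18239057-18239356 on the minus strand and the Per3 window is chr4:151044616-151044915 on the minus strand.
Nfil3: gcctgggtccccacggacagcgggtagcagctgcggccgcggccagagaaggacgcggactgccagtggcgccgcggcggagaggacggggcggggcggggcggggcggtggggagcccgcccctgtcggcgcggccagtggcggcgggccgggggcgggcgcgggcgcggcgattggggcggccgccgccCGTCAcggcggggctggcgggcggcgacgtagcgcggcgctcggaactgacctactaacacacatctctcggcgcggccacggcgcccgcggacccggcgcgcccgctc
Per1 window 1: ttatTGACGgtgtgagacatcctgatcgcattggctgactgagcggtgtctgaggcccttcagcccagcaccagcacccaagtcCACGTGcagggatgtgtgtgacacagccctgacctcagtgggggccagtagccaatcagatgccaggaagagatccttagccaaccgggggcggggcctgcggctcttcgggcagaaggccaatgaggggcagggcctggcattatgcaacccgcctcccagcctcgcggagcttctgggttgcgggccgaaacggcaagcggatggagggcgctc
Per1 window 2: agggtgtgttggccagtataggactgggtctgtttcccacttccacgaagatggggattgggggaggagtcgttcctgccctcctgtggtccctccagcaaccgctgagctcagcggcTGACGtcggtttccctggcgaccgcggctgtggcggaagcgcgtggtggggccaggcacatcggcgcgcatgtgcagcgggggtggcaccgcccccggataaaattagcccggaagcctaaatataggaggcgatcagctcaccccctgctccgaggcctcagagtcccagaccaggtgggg
Nr1d2: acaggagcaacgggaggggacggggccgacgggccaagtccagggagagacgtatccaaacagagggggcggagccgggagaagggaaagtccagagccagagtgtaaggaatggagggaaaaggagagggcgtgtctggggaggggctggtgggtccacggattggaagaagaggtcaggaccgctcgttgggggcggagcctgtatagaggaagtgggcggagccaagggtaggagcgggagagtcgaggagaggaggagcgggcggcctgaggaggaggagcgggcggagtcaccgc
Per3: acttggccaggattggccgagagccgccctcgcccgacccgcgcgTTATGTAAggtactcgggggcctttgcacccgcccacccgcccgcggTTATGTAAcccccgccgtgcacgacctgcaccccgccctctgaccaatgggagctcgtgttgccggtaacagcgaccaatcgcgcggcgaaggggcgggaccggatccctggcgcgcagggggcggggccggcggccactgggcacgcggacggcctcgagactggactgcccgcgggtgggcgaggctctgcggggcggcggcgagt

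None of the 10 windows held the full CRE, which 1.79% of all 32851 windows in the table hold. The short CRE form was present once in each Per1 window, 246 and 132 bases before the start site, and once in Nfil3, on the other strand and 59 bases before it. It was also present in Cry1 and Cry2, whose levels at 2 h did not pass, and 20.8% of all windows hold it. The first Per1 window also held the E-box, 166 bases before the start site, as did Cry1 and both Tef windows (7.15% of all windows). Nr1d2, which rose at 2 h, and Dbp held none of these motifs. Per3 held the D-box form TTATGTAA at 205 and 158 bases before its start site, a form in 0.938% of all windows. These matches describe letters in short windows and say nothing of binding.

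Dbp and Tef encode the PAR bZIP activators that bind the same D-boxes as NFIL3, and in WT cells both were higher at 24 h than at 6 h. At 6 h, 2 of the 10 genes, Nfil3 and Per1, were higher than at 0 h and 0 were lower (19.6% of all probe sets passed, 9.52% as higher and 10.1% as lower). At 24 h, 4 genes, Nfil3, Per1, Nr1d2 and Dbp, were higher than at 0 h and 0 were lower (30.0% of all probe sets passed, 14.4% as higher and 15.6% as lower). Between 2 and 6 h Per1 and Nr1d2 fell and Cry2 rose (13.0% of all probe sets passed, 6.37% as higher and 6.66% as lower), and between 6 and 24 h Dbp, Nr1d2 and Tef rose and none fell (17.8% passed, 8.64% as higher and 9.16% as lower). The median change of the 10 genes was 0.08 at 6 h and 0.13 at 24 h, against −0.03 and −0.01 over all probe sets.

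For Dbp, the Kin- arrays read 5.97, 6.08, 6.22 and 6.62 at 0 h, 6.33, 5.99 and 6.15 at 2 h, 6.41, 6.52 and 6.61 at 6 h, and 5.85, 5.89 and 6.06 at 24 h. The WT arrays read 6.35, 6.35, 5.49 and 6.36 at 0 h, 5.23, 5.59 and 5.65 at 2 h, 6.06, 5.46 and 5.36 at 6 h, and 6.62, 7.22 and 6.55 at 24 h. All WT arrays at 24 h were above all other WT arrays, and 1 untreated array, number 16, lay far below the other untreated ones. Dbp rose by 1.17 ± 0.23 between 6 and 24 h (SE, adjusted p = 0.000837), by 1.47 in arrays 16 to 47 alone and by 0.56 between the single arrays of each time numbered 1 to 14. Against 0 h it was higher by 0.66 ± 0.216 at 24 h (adjusted p = 0.0225), a call lost without WT array 16 at 0 h (0.45, adjusted p = 0.0949) or without WT array 19 at 24 h (0.45, adjusted p = 0.187). At 2 h its change was −0.64 (adjusted p = 0.052, 95% interval −1.09 to −0.19). Within the array sets it was −0.30 in arrays 16 to 47 (adjusted p = 0.439) and −1.11 in arrays 1 to 14 (adjusted p = 0.0484), and without WT array 16 at 0 h it was −0.86 (adjusted p = 0.00399). It lay on either side of the threshold under other settings, for example adjusted p = 0.0488 with the array set as a term. At 6 h the change was −0.51 (adjusted p = 0.118), or −0.72 without WT array 16 (adjusted p = 0.00968). The second Dbp probe set passed in none of the 12 comparisons.

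Tef, like Dbp, had its lowest WT group means at 2 and 6 h and its highest at 24 h. In Kin- cells its levels were 7.78, 7.34, 7.31 and 7.81 at 0 h, 7.84, 7.90 and 7.77 at 2 h, 7.51, 7.58 and 7.49 at 6 h, and 7.43, 7.22 and 7.68 at 24 h. In WT cells they were 7.52, 7.81, 7.54 and 7.52 at 0 h, 7.36, 7.24 and 7.16 at 2 h, 7.43, 7.45 and 7.22 at 6 h, and 7.79, 8.15 and 7.72 at 24 h. The WT arrays at 2 and 6 h were all below the untreated ones, which those at 24 h overlapped. Tef rose by 0.52 ± 0.14 between 6 and 24 h (SE, adjusted p = 0.0109), and this call was lost without WT array 38 at 6 h (0.45, adjusted p = 0.0617) or WT array 19 at 24 h (0.39, adjusted p = 0.0895). Its change against 0 h was −0.35 at 2 h (adjusted p = 0.0907) and 0.29 at 24 h (adjusted p = 0.111, or 0.0273 with the array series as a block). The other 2 Tef probe sets passed in none of the 12 comparisons, and between 6 and 24 h they changed by −0.06 and 0.04. With the mean of the Tef probe sets that change was 0.16 (adjusted p = 0.0733).

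**Figure D2:**
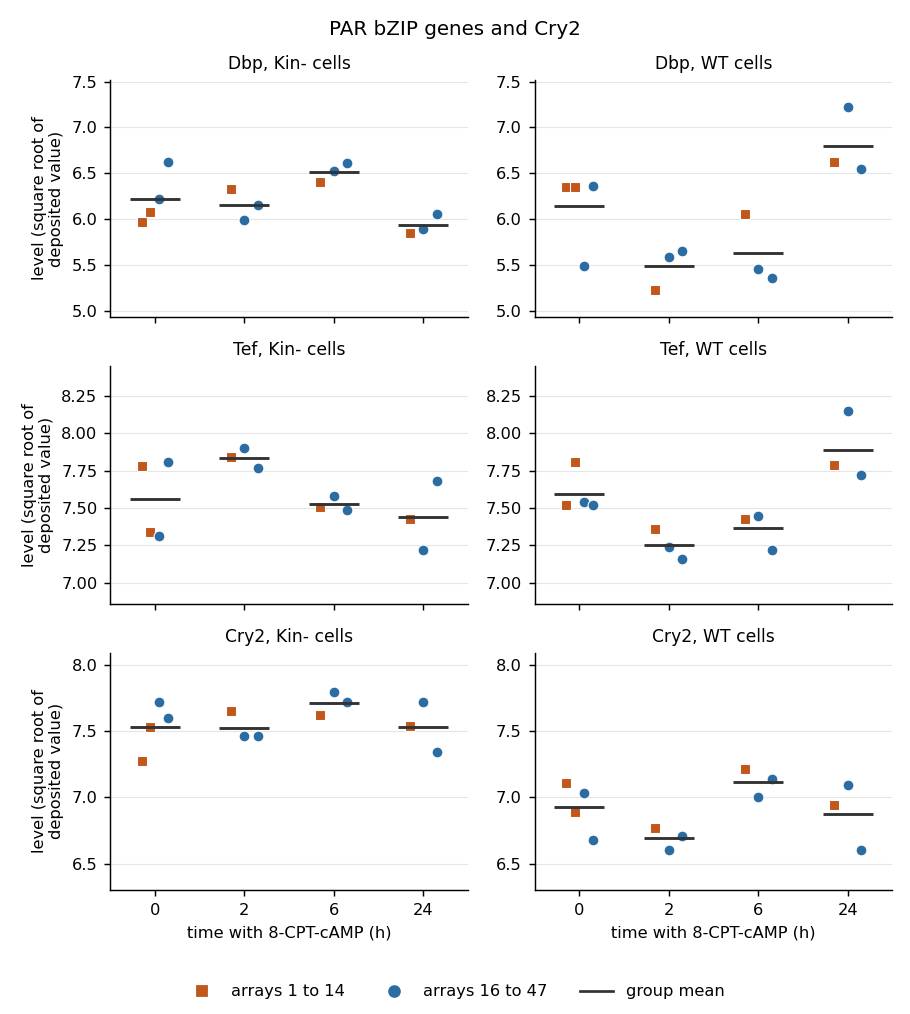
Levels of Dbp, Tef and Cry2 (square root of the deposited value) in every array against time with 8-CPT-cAMP in hours, Kin- cells in the left panels and WT cells in the right ones. Squares are arrays 1 to 14, circles arrays 16 to 47 and bars the group means; Dbp in WT cells read 6.55 to 7.22 at 24 h, above every other WT array, and Cry2 read 7.27 to 7.79 in all Kin- arrays, above all WT arrays.

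Among the core repressors, the Cry2 level differed between the lines. Cry2 encodes a cryptochrome that binds and represses CLOCK and BMAL1. Untreated Kin- arrays read 7.27, 7.53, 7.72 and 7.60, and untreated WT arrays 7.11, 6.89, 7.03 and 6.68, with no overlap. Cry2 was higher in untreated Kin- cells by 0.60 ± 0.114 (SE, adjusted p = 0.00356), and Cry2 was the only 1 of the 10 genes to pass (3.01% of all probe sets passed, 1.58% as higher and 1.42% as lower). The difference was 0.80 in arrays 16 to 47 (adjusted p = 0.0236) and 0.40 in arrays 1 to 14 (adjusted p = 0.351), and its call was lost when only these 2 groups entered the fit (adjusted p = 0.0611). The separation held at every time: all 13 Kin- arrays read 7.27 to 7.79 and all 13 WT arrays 6.60 to 7.21. Of all probe sets 1.91% separated the lines so completely in either direction, and Cry2 was the only representative member probe set among them. In WT cells Cry2 also rose by 0.42 between 2 and 6 h (adjusted p = 0.0391). This call was lost without any 1 of WT arrays 17 or 37 at 2 h and 3 or 38 at 6 h (adjusted p 0.0799 to 0.136), and its changes against 0 h, −0.23 at 2 h and 0.19 at 6 h, did not pass.

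Cry1, the other cryptochrome, did not pass in any of the 12 comparisons, but its level moved with the array set. In arrays 1 to 14 it read 8.21 to 9.02 in Kin- cells and 8.21 to 8.79 in WT cells, and in arrays 16 to 47 it read 8.96 to 9.39 in Kin- cells and 8.43 to 9.35 in WT cells. The mean difference between the sets was 0.57 ± 0.0855 (SE, adjusted p = 4.18e-05), in a comparison that 40.1% of all probe sets passed. With the array set as a term, the WT level at 24 h differed from that at 0 h by −0.43 (adjusted p = 0.044) and from that at 6 h by −0.63 (adjusted p = 0.00921). In arrays 16 to 47 alone these differences were −0.45 (adjusted p = 0.0247) and −0.80 (adjusted p = 0.00146), and with the array series as a block −0.48 (adjusted p = 0.00272) and −0.63 (adjusted p = 0.000559). Without the term they were −0.34 (adjusted p = 0.511) and −0.63 (adjusted p = 0.194). In the comparison of the sets (arrays 16 to 47 minus 1 to 14, limma) Per1 passed too, with 0.23 (adjusted p = 0.022), as did Bhlhe40, with 1.61 (adjusted p = 0.00288). Nr1d2 passed it within WT cells only, with −0.21 (adjusted p = 0.0477).

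Per2 and Per3, which encode the other period repressors, passed in none of the 12 comparisons with any of their 5 probe sets. The Per2 level ran from 3.46 to 4.16 over all 26 arrays and that of Per3 from 5.38 to 6.05. At 2 h in WT cells the Per2 change was −0.01 (95% interval −0.22 to 0.19) and the Per3 change −0.20 (−0.50 to 0.10), so a rise of the size of that of Per1 lies outside both intervals for these probe sets. The Per2 probe set was at percentile 35 of mean level and that of Per1 at 59.7, so a Per2 change may be understated. The other Per2 probe set read 3.03 to 3.65, and the 2 further Per3 probe sets read 2.34 to 2.88 and 2.09 to 2.29, both among the dimmest 25% of all probe sets, where a change can be understated.

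Bhlhe40 encodes DEC1, a basic helix-loop-helix repressor that competes at E-boxes. Its Kin- levels were 5.02, 4.57, 8.33 and 8.96 at 0 h, 5.23, 7.25 and 7.75 at 2 h, 7.42, 7.91 and 7.92 at 6 h, and 5.07, 7.96 and 8.75 at 24 h. Its WT levels were 5.14, 5.07, 6.00 and 7.58 at 0 h, 4.57, 5.06 and 5.08 at 2 h, 7.42, 5.89 and 6.75 at 6 h, and 5.02, 5.95 and 5.56 at 24 h. Within a group the arrays lay up to 4.39 units apart, and the lowest Kin- array was one of those numbered 1 to 14 at every time, with a narrow gap at 6 h. No comparison passed: the 2 h change in WT cells was −1.04 ± 0.967 (SE, adjusted p = 0.539, 95% interval −3.06 to 0.97), and in arrays 16 to 47 alone it was −1.72 (adjusted p = 0.0315). Between 2 and 6 h it was 1.78 (adjusted p = 0.252, or 0.0447 with the array series as a block). Bhlhe40 was higher in arrays 16 to 47 than in arrays 1 to 14 by 2.63 ± 0.422 in Kin- cells (SE, adjusted p = 0.00159, 19.8% of all probe sets passed) and by 0.59 in WT cells (adjusted p = 0.289, 21.7% of all probe sets passed). The difference between these differences, 2.04, had adjusted p = 0.0691.

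Nfil3 shared this dependence on the array set in Kin- cells. It was higher in arrays 16 to 47 than in arrays 1 to 14 by 1.72 ± 0.181 in Kin- cells (SE, adjusted p = 0.000172, 19.8% of all probe sets passed) and differed by −0.91 ± 0.194 in WT cells (adjusted p = 0.00929, 21.7% of all probe sets passed). The difference between the lines in this respect, 2.63 ± 0.279 (Kin- minus WT), had adjusted p = 5.13e-05, and 4.34% of all probe sets passed that test, in which Nfil3 was the only 1 of the 10 genes to pass. Each set gave its own comparison of the untreated lines: Nfil3 in Kin- minus WT cells was 1.94 in arrays 16 to 47 (adjusted p = 0.00175), −0.78 in arrays 1 to 14 (adjusted p = 0.374) and 0.58 over both (adjusted p = 0.932). What else differs between the sets was not tested.

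**Figure D3:**
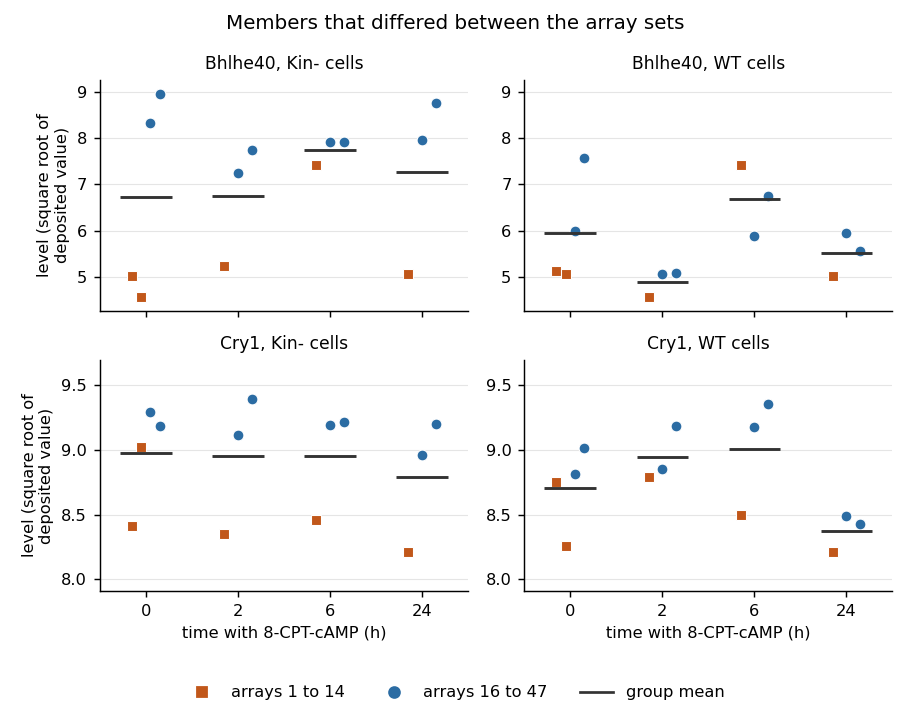
Levels of Bhlhe40 and Cry1 (square root of the deposited value) in every array against time with 8-CPT-cAMP in hours, Kin- cells in the left panels and WT cells in the right ones. Squares are arrays 1 to 14, circles arrays 16 to 47 and bars the group means; in Kin- cells at 0 h Bhlhe40 read 4.57 and 5.02 in the squares and 8.33 and 8.96 in the circles.

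In Kin- cells 0 of the 10 genes passed at 2, 6 or 24 h with limma, as did 0% of all probe sets. At an unadjusted p under 0.05, 1, 0 and 0 of the 10 genes and 489, 429 and 491 of all 22626 probe sets differed from 0 h at these times. The 1 gene was Tef at 2 h, with 0.28 (unadjusted p = 0.0468). Each of these counts of probe sets is below what a threshold of 0.05 gives where nothing changes. The tests in Kin- cells may therefore be conservative, and the reason was not tested. For Per1 at 2 h the Kin- change was −0.07 (95% interval −0.42 to 0.28), for Nr1d2 −0.29 (−0.62 to 0.05) and for Nfil3 −0.06 (−1.36 to 1.25). The intervals of Nfil3 and of Bhlhe40 (−1.99 to 2.04) are wide, so this fit, which had no term for the array set, did not resolve changes within them.

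The responses of the lines were then tested against each other, as the WT change minus the Kin- change at the same time. At 2 h this difference passed for 4 of the 10 genes, positive for Per1, Nfil3 and Nr1d2 and negative for Tef (6.92% of all probe sets passed, 3.51% with a positive and 3.41% with a negative difference). It was 4.00 ± 0.884 for Nfil3 (SE, adjusted p = 0.0062), 2.05 ± 0.239 for Per1 (adjusted p = 7.81e-06) and 1.62 ± 0.227 for Nr1d2 (adjusted p = 7.61e-05). For Tef it was −0.62 (adjusted p = 0.0459), a call lost in 17 of the 26 fits that left out 1 array, with adjusted p up to 0.117, and with the array series as a block (−0.48, adjusted p = 0.0915). The other 2 Tef probe sets had differences of 0.15 and 0.22, of the opposite sign and not passed, and with the mean of all Tef probe sets the difference was −0.09 (adjusted p = 0.663). At 6 h the difference passed for Nfil3, at 2.83 (adjusted p = 0.0436), and Per1, at 0.77 (adjusted p = 0.0424), among 10.8% of all probe sets (5.07% positive and 5.73% negative). Without 1 array the Nfil3 call was lost in 12 of 26 fits and the Per1 call in 10, with adjusted p up to 0.143 and 0.145. In arrays 16 to 47 alone the Nfil3 difference was 3.27 (adjusted p = 0.000211) and that of Per1 0.96 (adjusted p = 0.0761).

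At 24 h the difference passed for Dbp, at 0.95 (adjusted p = 0.0278), and Nr1d2, at 0.77 (adjusted p = 0.0163), among 21.5% of all probe sets (10.2% positive and 11.3% negative). The Dbp call was lost without WT arrays 16 or 19 or Kin- arrays 44, 8 or 43 (adjusted p 0.0518 to 0.11), and the Nr1d2 call without WT array 4 or Kin- array 43 (0.0541 and 0.0673). For Nfil3 it was 2.45 (adjusted p = 0.0544), and it passed with the array set as a term (adjusted p = 0.0427), with the array series as a block (3.07, adjusted p = 2.44e-05) and in arrays 16 to 47 alone (3.03, adjusted p = 0.000118). The Per1 difference of 0.52 did not pass (adjusted p = 0.155); it was 0.84 with array weights (adjusted p = 0.0054) and 0.69 without WT array 4 (adjusted p = 0.0419). That of Tef was 0.41 (adjusted p = 0.143), or 0.55 with the array series as a block (adjusted p = 0.0229). With the mean of both Dbp probe sets the Dbp difference was 0.57 (adjusted p = 0.0631).

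**Figure D4:**
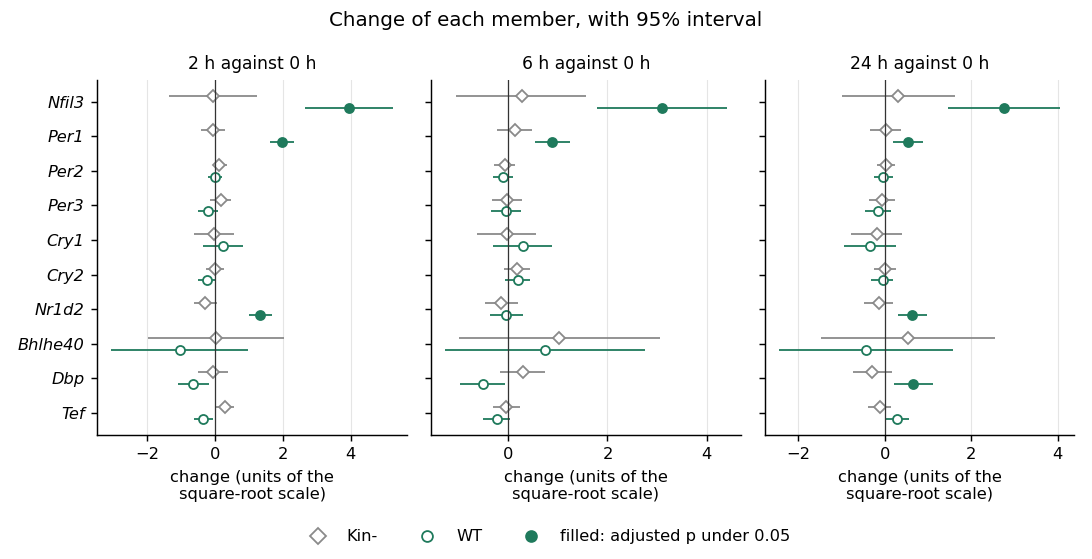
Changes of the 10 genes against 0 h of the same line, in units of the square root of the deposited value, with 95% intervals. The panels from left to right are 2, 6 and 24 h. In every panel grey diamonds are Kin- cells and green circles WT cells, and filled symbols have adjusted p under 0.05. In WT cells Nfil3 lies at 3.94, 3.10 and 2.76, Per1 at 1.98, 0.89 and 0.54, and Nr1d2 at 1.33, −0.04 and 0.64, while every Kin- interval except that of Tef at 2 h includes 0.

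Of 30 further genes of the clock and its regulators, 25 had a probe set of their own symbol, and the others were not analysed here. In WT cells 4 were higher and 1 lower at 2 h, 4 higher and 4 lower at 6 h, and 4 higher and 6 lower at 24 h, with median changes of 0.04, −0.04 and −0.02. Among all probe sets 14.4%, 19.6% and 30.0% passed at these times. In Kin- cells 0 of the 25 passed at any time. Rora, whose product activates Bmal1 at the elements where REV-ERBβ represses it, rose by 1.44 at 2 h (adjusted p = 0.000266), 1.66 at 6 h and 2.39 at 24 h (adjusted p = 1.35e-07). Gsk3b, a kinase that phosphorylates clock proteins, rose by 2.32 at 2 h (adjusted p = 6.27e-09), and was not among the 4 genes higher at 24 h. Cipc, a CLOCK-interacting repressor, rose by 1.30 at 24 h (adjusted p = 1.31e-07).

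The clock-linked genes that fell by at least 1 unit did so at 24 h. Timeless changed by −2.08 (adjusted p = 2e-06) and its partner gene Tipin by −1.82 (adjusted p = 8.06e-12). Their mammalian proteins are best known from DNA replication forks. The WT arrays differed widely in Timeless at 24 h (SD 0.99, against 0.10 at 0 h), while its p-value rests on the spread shared by all groups. For Tipin these SDs were 0.26 and 0.10. Wee1, a kinase gene that restrains entry into mitosis and an E-box target in mouse liver, changed by −1.94 (adjusted p = 4.06e-09), and Nampt, an enzyme of NAD synthesis that is a clock output in liver, by −1.29 (adjusted p = 0.00271). Between the untreated lines 2 of the 25 genes passed (3.01% of all probe sets passed), both activator genes: Arntl (Bmal1) was higher in Kin- cells by 0.72 (adjusted p = 0.0351) and Arntl2 by 0.85 (adjusted p = 0.0366). Their partner genes Clock, with 0.35 (adjusted p = 0.735), and Npas2, with −0.10 (adjusted p = 0.761), did not pass. The Arntl and Arntl2 calls were not examined by leaving out arrays or by fitting only the compared groups. The untreated SDs were uneven, 0.47 in WT and 0.09 in Kin- cells for Arntl, and 0.14 and 0.52 for Arntl2.

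The genes whose 8 group means followed those of Per1 most closely, among 2771 genes with a range of at least 1 unit, were Sgtb (Pearson r = 0.993), Impact (0.991) and Map3k11 (0.989). For Nfil3 they were St7 (0.99), Mkrn1 (0.984) and Arid5a (0.984). These values describe 8 means that share their untreated arrays and array sets. Map3k11, like Per1, had its highest WT mean at 2 h, 7.83, against 6.94 at 0 h, and Arid5a had 9.89 at 2 h and 9.51 at 24 h, against 6.54 at 0 h.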

How the data were processed

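Total RNA of 26 S49 samples was measured on oligonucleotide arrays, and groups came from the labels. The values are scores that the authors deposited in 1 table (0.375 to 267, 0 missing). How these deposited scores were computed, with which software and on which scale, is not given here. Their square root (0.612 to 16.4, column medians 5.40 to 5.53) was taken as log2-like intensity, so 1 unit need not equal an exact doubling. The design foresaw log2-like values, taken as the square root unless the deposited values showed otherwise.

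Probe sets were named from the platform annotation: 20380 had 1 symbol, 691 several and 1555 none. All 17 member probe sets matched a current gene table. limma 3.58.1 (lmFit, eBayes; R 4.3.3) was fitted to 1 mean per group over all 26 arrays and 22626 probe sets, with no low-level filter and adjusted p under 0.05 as the threshold. Array depth has no counterpart here, and precision is limited by the number of arrays and by their spread. With the array set as a term, the SE of the WT change at 2 h was 0.161 for Cry1 (0.284 without the term). For Bhlhe40 it was 0.715 (0.967 without the term), and for Per2 it hardly differed (0.1 and 0.0986). The 10 members and the lists of other genes were chosen with earlier results of these data known. Named genes were all 10 members, other clock genes that passed with a change of at least 1 unit in WT cells against 0 h, the 3 genes most like Per1 and Nfil3, and Crem as a check. Prkaca, Arntl, Arntl2, Clock, Npas2 and single marker genes were named after their values were seen. No columns were identical (root mean square difference within groups 0.17 to 0.454).

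Arrays with consecutive numbers form 6 series of 0, 2, 6 and 24 h. Their deviations from group means correlated at 0.23 to 0.70 within series, and the labels do not say that a series pairs its arrays. The fit with series as a replicate block was an alternative, beside other powers, a term for the array set, each set alone, quantile normalization, array weights, a robust fit, a filter on dim probe sets, the mean of a gene's probe sets, and leaving out each array.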

Additional observations from a re-analysis of the deposited data

Results flagged for a closer look

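In 4 of 20 combinations of a gene and an untreated group, 1 of the 4 arrays stood far from the others, by a gap above Dixon's 95% critical value. Chance gives such a gap in about 1 of 20 groups where the 4 values are independent and come from the same normal distribution. In WT cells at 0 h these were Per2 in array 13, at 3.89 (0.941 of the range), Tef in array 13, at 7.81 (0.924), and Dbp in array 16, at 5.49 (0.989). In Kin- cells at 0 h it was Per3 in array 5, at 5.40 (0.95). Each untreated group held arrays of both array sets, which the chance rate does not allow for. Per2 and Tef stood apart in the same array, so the combinations are not independent. The share of all probe sets with such a gap was not determined. Whether these genes show it more often than other genes was therefore not tested.

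The response to the analog, as the WT change minus the Kin- change, differed between the lines for 8 of 30 combinations of a gene and a time, by the interaction test in limma. At 2 h these were Nfil3 (4.00), Per1 (2.05), Nr1d2 (1.62) and Tef (−0.62), and 6.92% of all probe sets passed. The Tef call was lost in 17 of the 26 fits that left out 1 array. With the mean of all Tef probe sets the Tef difference was −0.09 (limma, adjusted p = 0.663). At 6 h they were Nfil3 (2.83) and Per1 (0.77), and at 24 h Dbp (0.95) and Nr1d2 (0.77). Of all probe sets 10.8% passed at 6 h and 21.5% at 24 h. Each of these 6 and 24 h calls was also lost in some fits that left out 1 array.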

How the results depend on the processing

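Of 24 changes of a gene that passed, 24 passed again with power 0.75, the array set as a term, array weights or without the dimmest 25% of probe sets, 22 with untransformed values, quantile normalization or the robust fit, 21 with log2 or the mean of a gene's probe sets, 18 in arrays 16 to 47 alone, 16 with only the compared groups and 2 in arrays 1 to 14 alone, where most groups have 1 array. With the array series as a replicate block 22 of 23 passed again and 7 further ones passed; the untreated lines cannot be compared in that fit. No change reversed. Counts of genes that moved by more than 1.5 times were as follows. At 2 h in WT cells the count of 3 was 5 with array weights. At 6 h the count of 2 was 0 in arrays 1 to 14. At 24 h the count of 4 was 1 in arrays 1 to 14 and 2 with only the compared groups. Between 2 and 6 h the count of 3 was 0 in arrays 1 to 14 and 5 with the block. Between 6 and 24 h the count of 3 was 0 in arrays 1 to 14, 5 with array weights and 1 with only the compared groups. Between untreated Kin- and WT cells the count of 1 was 2 in arrays 16 to 47, 0 in arrays 1 to 14 and 0 with only these groups. For WT minus Kin- responses, the 2 h count of 4 was 0 in arrays 1 to 14. The 6 h count of 2 was 1 with untransformed values, 0 with log2, 1 in arrays 16 to 47, 0 in arrays 1 to 14 and 1 with only the compared groups. The 24 h count of 2 was 0 in arrays 1 to 14, 4 with the block, 4 with array weights and 1 with only the compared groups. The cause was not tested. Leaving out 1 array gave 3 to 4, 2 to 3 and 2 to 4 genes at 2, 6 and 24 h in WT cells. It gave 2 to 3 between 2 and 6 h and 2 to 3 between 6 and 24 h, 0 to 0 at each time in Kin- cells, and 1 to 1 between the untreated lines. For the responses it gave 3 to 4, 0 to 2 and 1 to 3. The line-by-set test and the range of Cry2 over all arrays were added after seeing the data. Of the 17 member probe sets 4, of Per3, Tef and Nr1d2, are among the dimmest 25%, which limits what can be seen there.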
